A study of Mus musculus with 33 samples.

Results

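Described here, in colon regulatory T cells (Treg) of mice, are 10 genes with roles in holding, releasing and answering transforming growth factor beta (TGF-beta). They are Lrrc32, Itgb8, Nrp1 and Furin on the side of presentation and release, the ligand Tgfb1, the receptors Tgfbr1 and Tgfbr2, the signal carrier Smad3, and the inhibitors Smad7 and Ski. The 10 genes were chosen by name and function, with earlier results of these data known. No measured value was part of the rule itself. The count table holds 53465 genes, and all 10 passed the filter on low counts. The study sorted colon Treg by TSLPR, the receptor for the cytokine TSLP, and by ST2, the receptor for IL-33, in mice with and without colitis-associated cancer.

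All mice had the genotype Foxp3-yfp B6, a reporter at Foxp3 that marks Treg (the protocols name Foxp3YFP-cre mice), so every group, naive included, carries that allele. They were 7 to 12 weeks old per the labels. The 4 cancer mice (mice 5 to 8) received azoxymethane (AOM, a carcinogen) at 10 mg/kg and then 3 cycles of dextran sodium sulfate (DSS, which injures the colon lining), each of 7 days, with sorting 2 weeks after the end of the last cycle. The 4 naive mice (mice 1 to 4) are labelled only as naive, and the labels name no mock treatment for them. From each mouse 4 gates of CD45+TCR+CD4+Foxp3+ cells were sorted, positive for both receptors (TSLPR+ST2+), for TSLPR alone (TSLPR+ST2-), for ST2 alone (TSLPR-ST2+) or for neither (TSLPR-ST2-). This gives 8 groups of 4 libraries, each library made from 200 cells. One more library holds Foxp3-negative CD44low T cells of a naive mouse. There is no group with AOM only or DSS only, and tumours, recent colitis and the chemicals cannot be told apart in any cancer value below.

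TGF-beta is made as a precursor, cut by the protease furin (Furin), and kept inactive inside the cut-off propeptide, the latency-associated peptide. On Treg the latent complex is held at the surface by GARP, the product of Lrrc32, and integrin αvβ8, whose beta chain is Itgb8, frees the active cytokine. Nrp1 encodes neuropilin-1, a co-receptor used as a marker of thymus-derived Treg that can also bind TGF-beta. The free cytokine joins the type II receptor (Tgfbr2) to the type I receptor (Tgfbr1), which phosphorylates Smad3, while Smad7 blocks the receptor and Ski represses Smad targets in the nucleus. In the gut this pathway is known for the induction of peripheral Treg and for the integrin CD103 (Itgae) on mucosal T cells.

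The Tgfb1 coding sequence itself holds the docking site for the integrin and the site that furin cuts. Both lie in exon 5 of Tgfb1 on the + strand of chromosome 7 (GRCm38, sequence of the GENCODE M21 transcript), at chr7:25697127-25697165 and chr7:25697220-25697261. In the first line the capitals mark the codons for arginine, glycine and aspartate (codons 244 to 246 of 390), the motif that αv integrins recognise. In the second line they mark the codons for the furin motif arginine, histidine, arginine and arginine (codons 275 to 278). Each motif occurs once in the coding sequence.
Tgfb1 integrin site: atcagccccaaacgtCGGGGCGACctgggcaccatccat
Tgfb1 furin site: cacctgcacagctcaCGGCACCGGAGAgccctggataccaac

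The libraries held 4038718 to 8839946 counts with 14632 to 16845 genes detected. Foxp3 was at 59.9 to 222 CPM (counts scaled to a common library total) in all 32 Treg libraries. Il1rl1, the ST2 gene, was at 95.6 to 309 CPM in ST2+ libraries and lower in every ST2- library. Crlf2, the TSLPR gene, went against its gate in cancer mouse 5, where the TSLPR+ST2+ library had 25.2 CPM and the TSLPR-ST2+ library 30.5 CPM. RNA of other cells was present and moved with the gates. The 14 macrophage and dendritic cell markers summed to 688 to 5017 CPM (median 2295) in TSLPR+ and 38.9 to 2843 CPM (median 679) in TSLPR- libraries, and to 684 to 5017 CPM (median 2314) in ST2+ and 38.9 to 2638 CPM (median 681) in ST2- libraries. Of these markers 6 had a median under 1 CPM. The 6 B and plasma cell markers summed to 42.3 to 838 CPM (median 162) in TSLPR+ and 30.02 to 124 CPM (median 53.6) in TSLPR- libraries, with 2 of them under 1 CPM by median. The 8 epithelial markers reached 10675 CPM in the TSLPR+ST2+ library of cancer mouse 7 and at most 294 CPM in any naive library. Mitochondrial genes took 0.958 to 3.23% of counts in cancer and 0.616 to 1.28% in naive Treg libraries. All 6 platelet markers, checked because platelets also carry GARP, had a median under 1 CPM. In libraries of pooled cells, fewer cells with a transcript and less of it per cell cannot be told apart.

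Per kilobase of exon, over the 32 Treg libraries, Lrrc32 had the highest median at 47.1 CPM per kb, followed by Nrp1 at 21.3, Tgfbr2 at 18.9, Tgfbr1 at 18.2, Ski at 16.3 and Tgfb1 at 11.1 CPM per kb. Smad7 (8.58), Smad3 (7.52), Itgb8 (2.52) and Furin (2.48 CPM per kb) were lower. The ranges over libraries overlapped for neighbours in this order. With the length of the longest transcript in place of all exons, Nrp1 at 57.2 CPM per kb came ahead of Lrrc32, and Tgfb1 at 21.8 CPM per kb came next, and Itgb8 and Furin were again the lowest pair.

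**Figure D1:**
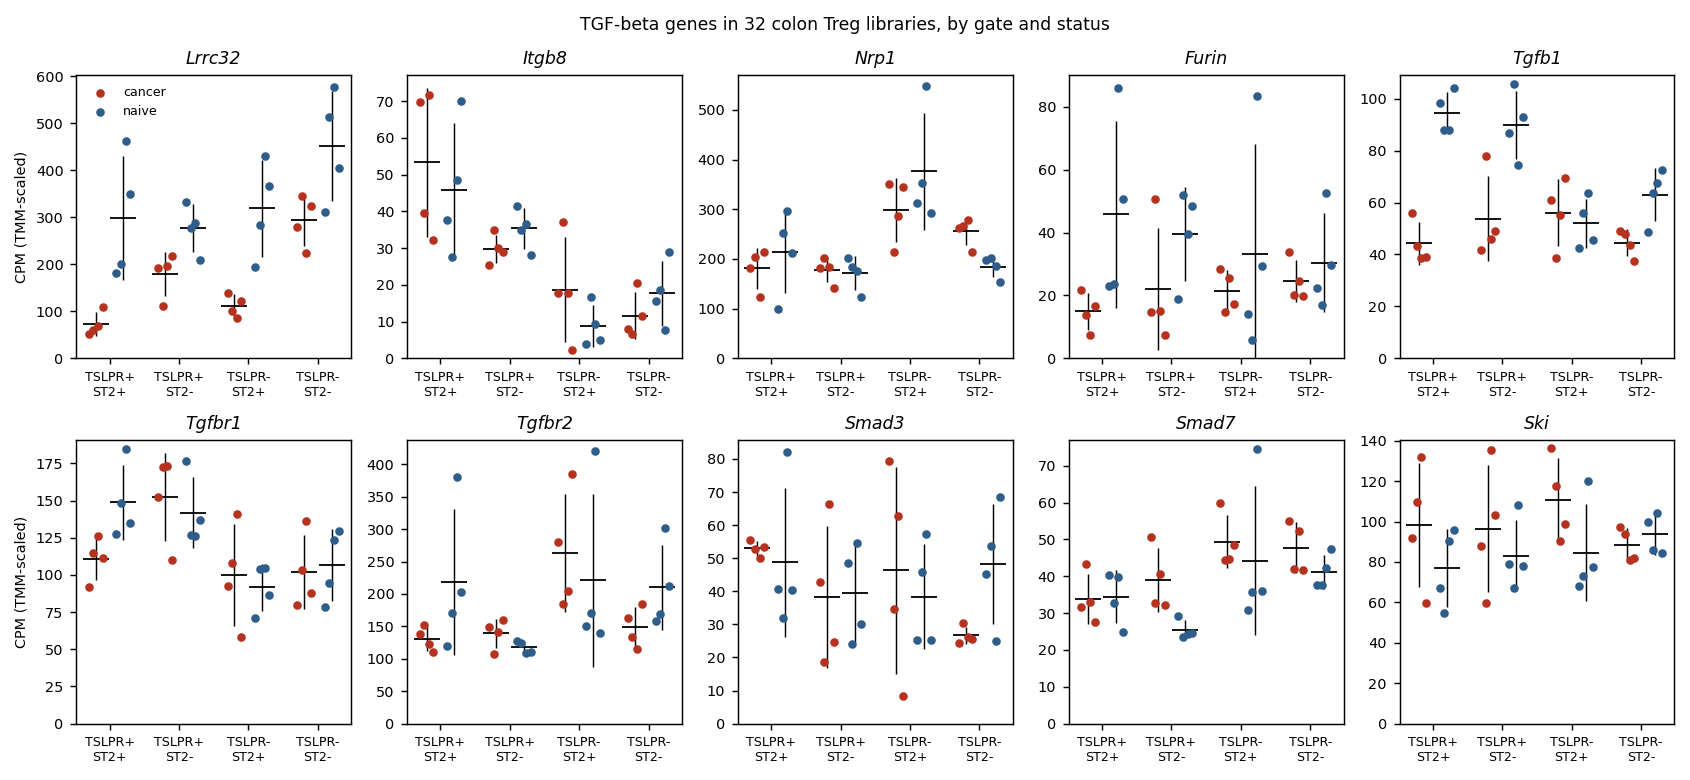
Level of each of the 10 genes in 32 colon Treg libraries. The y axes give CPM on TMM-scaled totals, the x axes the 4 gates, red points cancer and blue points naive libraries (n = 4 each), horizontal marks the mean and bars 1 SD. Lrrc32 lies lowest in the 2 ST2+ gates of cancer mice, Itgb8 is higher in the TSLPR+ gates, and Tgfb1 has its 2 highest group means in the TSLPR+ gates of naive mice.

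The TSLPR gates separated these genes more often than the other comparisons made. In TSLPR+ against TSLPR- libraries, 7 of the 10 passed edgeR's adjusted p limit of 0.05, against 13.4% of the 14861 genes tested (7.97% higher and 5.46% lower). Itgb8, Tgfbr1 and Tgfb1 were higher in TSLPR+ gates, and Lrrc32, Nrp1, Tgfbr2 and Smad7 were lower. In ST2+ against ST2- libraries 2 of 10 passed, Lrrc32 lower and Nrp1 higher, where 6.04% of all genes passed (3.7% higher and 2.33% lower). In cancer against naive mice, with the 4 gates of each mouse summed, Lrrc32 and Tgfb1 passed and both were lower, where 1.21% of 15338 genes passed (0.926% lower). Furin, Smad3 and Ski passed in none of the 15 comparisons. The median log2 difference of the 10 genes was -0.02 for TSLPR, 0.06 for ST2 and -0.11 for cancer on the per-mouse sums. Over all genes it was 0.01, 0.00 and 0.01. Without the ST2+ libraries of cancer mouse 5, whose Crlf2 went against the gate, Tgfb1 and Tgfbr2 did not pass for TSLPR (edgeR adjusted p = 0.0522 and 0.0567), nor Nrp1 for ST2 (edgeR adjusted p = 0.0721). Counts of mice below use the mean log2 CPM of a mouse's libraries on each side.

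**Figure D2:**
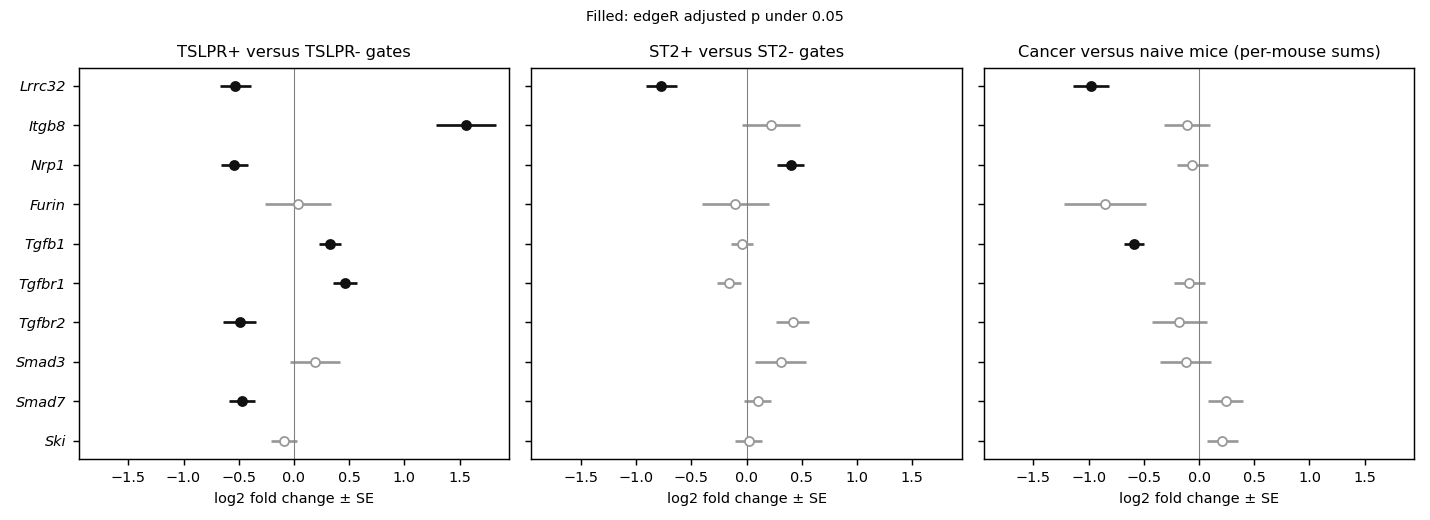
Model log2 fold change with its SE (x axis) for each gene (y axis) in TSLPR+ versus TSLPR- gates, ST2+ versus ST2- gates and cancer versus naive per-mouse sums. Filled points have an edgeR adjusted p under 0.05. In the 3 panels 7, 2 and 2 genes are filled, and Itgb8 at 1.56 in the first panel lies farthest from 0.

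Lrrc32, whose product GARP holds latent TGF-beta on Treg (chromosome 7, 98489283 to 98502181, + strand, on GRCm38 as for all genes below), was lower in cancer mice. Per-mouse sums were 176, 165, 146 and 193 CPM in cancer mice 5 to 8, against 254, 304, 448 and 337 CPM in naive mice 1 to 4, and the groups did not overlap, as was so for 11.3% of all genes. The model log2 difference was -0.98 ± 0.16 (SE, edgeR adjusted p = 0.0288).
Within gates the decrease passed in both ST2+ gates. In the TSLPR+ST2+ gate the libraries had 52.2, 61.1, 68.5 and 110.0 CPM in cancer mice, against 181, 201, 462 and 349 CPM in naive mice. That is a 4.08-fold lower level (log2 -2.03 ± 0.29, edgeR adjusted p = 0.000200), in a gate where 2 of the 10 genes and 4.16% of all genes passed (2.5% lower). In the TSLPR-ST2+ gate it had 139.8, 100.5, 85.5 and 123 CPM in cancer mice, against 195, 284, 430.5 and 367 CPM in naive mice. There it was 2.84-fold lower (log2 -1.51 ± 0.28, edgeR adjusted p = 0.0160) and the only one of the 10 past the limit, with 0.202% of all genes (0.155% lower). In both gates every cancer library lay below every naive one, as for 9.46% and 3.65% of all genes without overlap.
In the ST2- gates the groups overlapped. Lrrc32 had 193, 112, 197 and 218 CPM in cancer against 333, 278, 287 and 209 CPM in naive TSLPR+ST2- libraries (log2 -0.62 ± 0.28, edgeR adjusted p = 0.661). In TSLPR-ST2- libraries it had 280, 344, 224 and 325 CPM in cancer against 311, 514, 577 and 405 CPM in naive mice (log2 -0.62 ± 0.28, edgeR adjusted p = 0.639). In these gates 0 of the 10 genes passed, with 0.0471% and 0.209% of all genes, while 1100 and 1101 of 14861 genes had an unadjusted p under 0.05 and DESeq2 called 0 of the 10 in either gate. A call in one gate and not in another is no test of a difference between gates.

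The call on per-mouse sums was lost without single mice and with the mitochondrial share as covariate. Without any one of mice 2, 4, 5, 6, 7 or 8 the edgeR adjusted p for Lrrc32 was 0.0595 to 0.0948. With the log2 mitochondrial share as covariate the log2 difference was -0.16 per mouse and -0.86 in the TSLPR+ST2+ gate (edgeR adjusted p = 0.775 and 0.494), where cancer libraries had shares of 1.43 to 3.23% and naive libraries 0.618 to 1.24%. In the TSLPR-ST2+ gate, with shares of 0.958 to 1.64% in cancer and 0.616 to 1.28% in naive libraries, it was -1.33 with that covariate (edgeR adjusted p = 0.00548). Without the TSLPR+ST2+ library of cancer mouse 7, which carried epithelial transcripts, Lrrc32 passed in that gate with an edgeR adjusted p of 0.00147. Fitting only the 8 libraries of a gate gave -2.03 in TSLPR+ST2+ and -1.51 in TSLPR-ST2+ cells (edgeR adjusted p = 0.0551 and 0.167), and the TSLPR-ST2+ call was also lost without mouse 4 or mouse 7 (edgeR adjusted p = 0.0860 and 0.0832). With the macrophage and dendritic cell marker sum as covariate the values were -0.98 per mouse, -2.03 and -1.50 in these gates (edgeR adjusted p = 0.0419, 0.000239 and 0.0190).

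**Figure D3:**
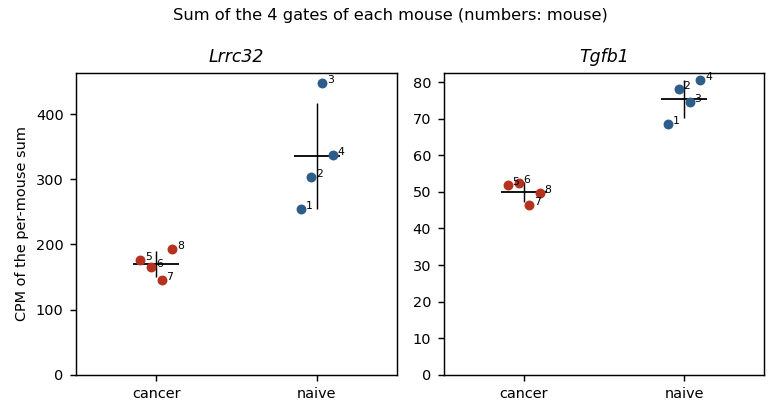
Lrrc32 and Tgfb1 in the summed counts of the 4 gates of each mouse. The y axis gives CPM, points are mice with their numbers, horizontal marks the mean and bars 1 SD (n = 4 each). The cancer mice lie at 146 to 193 CPM for Lrrc32 and 46.4 to 52.4 CPM for Tgfb1, all below the naive mice at 254 to 448 and 68.5 to 80.5 CPM.

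Lrrc32 was also lower in ST2+ than in ST2- gates. Over both statuses the ST2+ libraries ran from 52.2 to 462 CPM (median 161) and the ST2- libraries from 112 to 577 CPM (median 284), with overlap (log2 -0.77 ± 0.14, edgeR adjusted p = 0.000730, lower in 6 of 8 mice).
Among cancer mice the ST2+ libraries averaged 92.6 ± 31.1 CPM and the ST2- libraries 237 ± 76.3 CPM (SD, n = 8 each). This was log2 -1.34 ± 0.20, lower in 4 of 4 mice (edgeR adjusted p = 0.000140), and Lrrc32 was the only one of the 10 that passed there, with 2.35% of all genes (0.915% lower). Among naive mice they averaged 309 ± 110 CPM in ST2+ and 364 ± 126 CPM in ST2- libraries (log2 -0.20 ± 0.20, edgeR adjusted p = 0.791, lower in 2 of 4 mice).
The difference between these effects was log2 -1.15 ± 0.28 (cancer minus naive). Its unadjusted edgeR p was 0.000300, computed from the fit across all genes, and the edgeR adjusted p was 0.479, so it did not pass. No gene passed this interaction in edgeR, and 926 had an unadjusted p under 0.05. DESeq2 called 46 genes, of which Lrrc32 was one of the 10 described here.
With the log2 macrophage and dendritic cell marker sum as covariate, the ST2 difference over both statuses was -0.85 (edgeR adjusted p = 0.190), and genes passing over the whole table went to 46, against 897 without it. Among cancer mice alone it was -1.42 with that covariate (edgeR adjusted p = 0.0146).

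TSLPR+ gates had less Lrrc32 than TSLPR- gates, at 52.2 to 462 CPM (median 199) against 85.5 to 577 CPM (median 297). The groups overlapped, and 8 of 8 mice were lower (log2 -0.53 ± 0.14, edgeR adjusted p = 0.00995). Naive mouse 1 was close to even, with 181 and 333 CPM in TSLPR+ and 195 and 311 CPM in TSLPR- libraries. Among naive mice alone Lrrc32 did not pass (log2 -0.40, edgeR adjusted p = 0.306). Among cancer mice alone it was 127 ± 67.0 CPM in TSLPR+ and 203 ± 104 CPM in TSLPR- libraries (SD, n = 8 each, log2 -0.66 ± 0.20, edgeR adjusted p = 0.0397). That call passed in only 5 of 18 alternative fits. With the mouse as a random block it was -0.67 (limma adjusted p = 0.133), with the mitochondrial share as covariate -0.22 (edgeR adjusted p = 0.668), and without the TSLPR+ST2+ library of mouse 7 -0.64 (edgeR adjusted p = 0.0762). It also did not pass without one of mice 2, 4, 5, 6, 7 or 8 (edgeR adjusted p up to 0.197), with RLE size factors (edgeR adjusted p = 0.0502) or without the low-count filter (edgeR adjusted p = 0.0674).
Averaged by group, Lrrc32 was highest in naive TSLPR-ST2- cells (452 ± 118 CPM), followed by the naive TSLPR-ST2+ (319 ± 102), naive TSLPR+ST2+ (298 ± 132), cancer TSLPR-ST2- (293 ± 53.7) and naive TSLPR+ST2- groups (277 ± 51.2 CPM). The cancer TSLPR+ST2- (180 ± 46.5), TSLPR-ST2+ (112 ± 24.0) and TSLPR+ST2+ groups (73.0 ± 25.6 CPM) came last (SD, n = 4 each). Each pair of neighbours in this order overlapped.

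Itgb8, the beta chain of the integrin that frees TGF-beta from the GARP complex (chromosome 12, 119158022 to 119238802, - strand), rose in TSLPR+ gates. It had 25.3 to 71.7 CPM (median 35.9) in TSLPR+ libraries and 2.20 to 37.2 CPM (median 13.5) in TSLPR- libraries, 2.95-fold higher by the model (log2 1.56 ± 0.27, edgeR adjusted p = 0.000131). All 8 mice were higher in their TSLPR+ gates, and the 2 sets of libraries overlapped. No overlap between TSLPR+ and TSLPR- libraries was found for 0.0875% of all genes, and between ST2+ and ST2- libraries for 0.0202%, with none of the 10 among them.
In cancer mice the TSLPR+ST2+ libraries had 69.8, 39.6, 71.7 and 32.3 CPM and the TSLPR+ST2- libraries 25.3, 34.8, 30.1 and 28.9 CPM. The TSLPR-ST2+ libraries of the same mice had 17.8, 37.2, 17.7 and 2.20 CPM, and the TSLPR-ST2- libraries 7.94, 6.63, 20.6 and 11.5 CPM. Only the TSLPR-ST2+ library of mouse 6 reached the TSLPR+ range.
In naive mice the TSLPR+ST2+ libraries had 37.5, 27.5, 48.5 and 69.9 CPM and the TSLPR+ST2- libraries 41.6, 35.0, 36.7 and 28.2 CPM. Their TSLPR-ST2+ libraries had 3.93, 16.7, 9.37 and 5.07 CPM, and their TSLPR-ST2- libraries 15.5, 18.6, 7.64 and 29.0 CPM. Here the TSLPR-ST2- library of mouse 4 alone entered the TSLPR+ range.
The increase passed in each status, at log2 1.43 ± 0.37 among cancer mice (edgeR adjusted p = 0.0180) and 1.69 ± 0.38 among naive mice (edgeR adjusted p = 0.00593), and the test of their difference gave -0.26 ± 0.52 (edgeR adjusted p = 0.985). The cancer call was lost without mouse 5 or mouse 7 and with the mitochondrial share as covariate. The naive call was lost without mouse 1 (edgeR adjusted p = 0.0772). Both were lost with the macrophage and dendritic cell marker sum as covariate. Over these fits the edgeR adjusted p reached 0.520 among cancer and 0.165 among naive mice. Itgb8 did not pass between cancer and naive mice, with per-mouse sums of 25.8 ± 5.76 CPM in cancer and 27.9 ± 5.86 CPM in naive mice (SD, n = 4 each, edgeR adjusted p = 0.850). Dendritic cells also express Itgb8. With the macrophage and dendritic cell marker sum as covariate its TSLPR difference was log2 1.55 with an edgeR adjusted p of 0.190.

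That covariate ended all 7 TSLPR calls of the 10 genes, with edgeR adjusted p of 0.0962 to 0.555, while genes passing over the whole table went to 127, against 1996 without it. Their log2 differences under it were Itgb8 1.55, Tgfbr1 0.64, Tgfb1 0.36, Nrp1 -0.53, Lrrc32 -0.61, Tgfbr2 -0.62 and Smad7 -0.74, each with the sign it had before. Marker sum and TSLPR gate move together, and the part of other cells' RNA in these differences was not tested.

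Nrp1, the neuropilin-1 gene (chromosome 8, 128358604 to 128503363, + strand), fell in TSLPR+ gates, the opposite of Itgb8. TSLPR+ libraries had 99.5 to 296 CPM (median 184) and TSLPR- libraries 154 to 549 CPM (median 272), lower in 8 of 8 mice (log2 -0.54 ± 0.12, edgeR adjusted p = 0.00219). Among cancer mice the TSLPR+ libraries had at most 213.9 and the TSLPR- libraries at least 214.0 CPM, so they touched without overlapping, as for 0.41% of all genes.
Among the gate contrasts made, the log2 difference of Nrp1 was largest between the single-positive gates. TSLPR+ST2- libraries had 183, 202, 185 and 143 CPM in cancer and 202, 184, 177 and 124 CPM in naive mice, against 351, 214, 286 and 345 CPM in cancer and 312, 353, 549 and 292 CPM in naive TSLPR-ST2+ libraries. The groups did not overlap, as for 0.559% of all genes, and Nrp1 was 1.92-fold lower in TSLPR+ST2- cells in 8 of 8 mice (log2 -0.94 ± 0.17, edgeR adjusted p = 0.00120). This difference passed in all 18 alternative fits. In that comparison 4 of the 10 genes passed, with 2.67% of all genes (1.4% higher and 1.27% lower). Itgb8 and Tgfbr1 were higher, Nrp1 and Tgfbr2 lower, and all 4 also passed with the macrophage and dendritic cell marker sum as covariate (edgeR adjusted p 0.00165 to 0.0494).
In ST2+ against ST2- libraries Nrp1 had 99.5 to 549 CPM (median 269) and 124 to 278 CPM (median 192), higher in 5 of 8 mice (log2 0.40 ± 0.12, edgeR adjusted p = 0.0391). With the mouse as a block this was 0.38 in edgeR (edgeR adjusted p = 0.0584) and 0.38 in limma-voom (limma adjusted p = 0.0639), and without one of mice 2, 3, 4, 5 or 8 it did not pass (edgeR adjusted p up to 0.184). Among naive mice it was 296 ± 128 in ST2+ and 178 ± 27.0 CPM in ST2- libraries (SD, n = 8 each, log2 0.67 ± 0.17, edgeR adjusted p = 0.0419), the only one of the 10 past the limit, with 0.962% of all genes (0.666% higher). With the mouse as a block that was 0.63 (edgeR adjusted p = 0.0764). The naive call passed in only 7 of 18 alternative fits. Without one of mice 2, 3, 4, 5, 6 or 8 it did not pass (edgeR adjusted p up to 0.492).
Nrp1 did not pass between cancer and naive mice (234 ± 14.01 CPM in cancer and 245 ± 54.7 CPM in naive mice, SD, n = 4 each, edgeR adjusted p = 0.872). In the TSLPR-ST2- gate it had 263, 266, 278 and 215 CPM in cancer, against 198, 202, 185 and 154 CPM in naive mice. These did not overlap, as for 5.34% of all genes, and did not pass (log2 0.47 ± 0.24, edgeR adjusted p = 0.691). A microRNA gene, Mir1903, lies within it on the same strand, and its reads cannot be told apart from those of Nrp1 here.

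**Figure D4:**
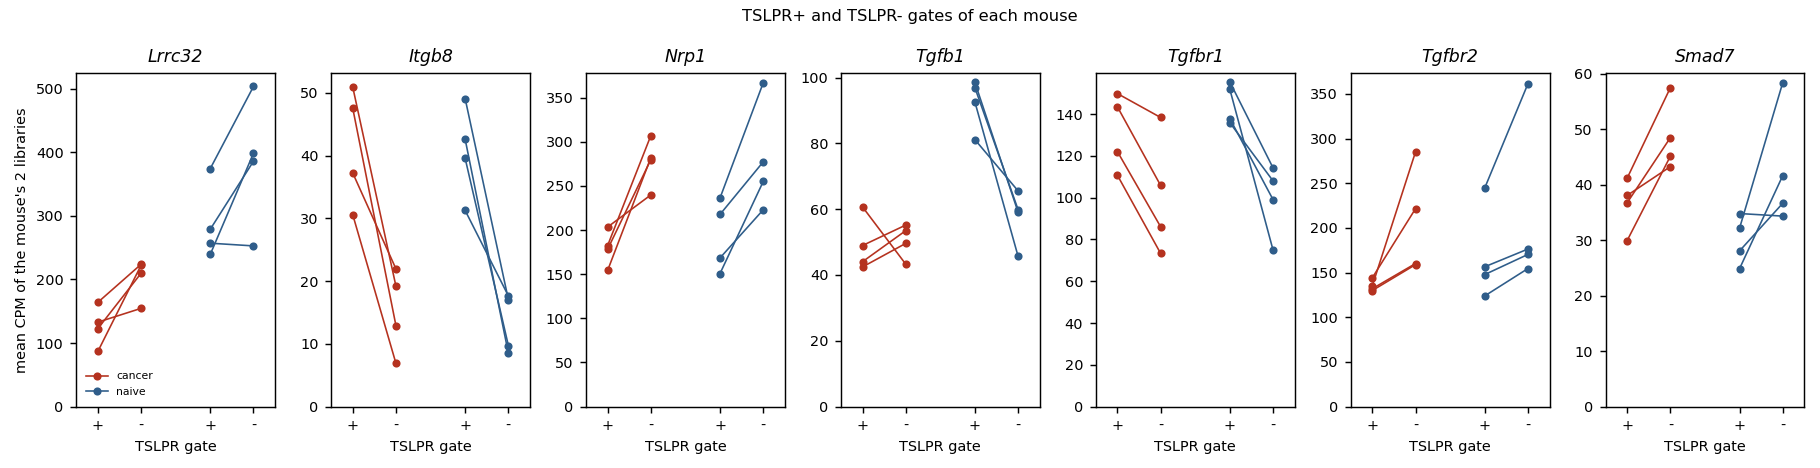
TSLPR+ and TSLPR- gates of each mouse for the 7 genes that passed. The y axis gives the mean CPM of the mouse's 2 libraries (ST2+ and ST2-) and lines join the gates of a mouse, red for cancer and blue for naive. All 8 lines for Itgb8 and Tgfbr1 run down to TSLPR-, all 8 for Nrp1 and Tgfbr2 and 7 each for Lrrc32 and Smad7 run up, and Tgfb1 is highest in the TSLPR+ gates of naive mice.

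Promoters of Itgb8 and Nrp1, the genes with the largest TSLPR increase and decrease on the log2 scale, are shown for the short Smad motif CAGAC. They are the 250 bases before the RefSeq start (GRCm38.p6), read along the gene, chr12:119238277-119238526 on the - strand for Itgb8 and chr8:128358823-128359072 on the + strand for Nrp1. Both windows lie inside the longer GENCODE gene model. Capitals mark CAGAC or its reverse complement GTCTG.
Itgb8 promoter: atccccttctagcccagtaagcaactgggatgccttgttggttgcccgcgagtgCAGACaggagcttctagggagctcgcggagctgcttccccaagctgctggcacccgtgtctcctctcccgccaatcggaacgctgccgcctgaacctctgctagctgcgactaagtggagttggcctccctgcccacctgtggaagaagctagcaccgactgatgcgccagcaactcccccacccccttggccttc
Nrp1 promoter: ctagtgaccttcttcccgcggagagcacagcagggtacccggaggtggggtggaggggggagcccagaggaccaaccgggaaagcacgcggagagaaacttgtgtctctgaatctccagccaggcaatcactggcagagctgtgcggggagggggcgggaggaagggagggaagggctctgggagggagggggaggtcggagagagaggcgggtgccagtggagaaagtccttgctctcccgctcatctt
Itgb8 holds 1 match and Nrp1 0. Of 32851 RefSeq windows of 250 bases, 42.2% hold CAGAC or GTCTG. The palindrome GTCTAGAC, found in 0.167% of windows, and the AP-1 motif TGACTCA or TGAGTCA, found in 4.46%, are in neither. Promoter windows were kept for 8 of the 10 genes. In the other kept windows, CAGAC or GTCTG had 1 match for Tgfbr2 and 0 for Tgfb1, Ski and Smad3. Tgfbr1 had windows with 0 and 1 match, and Furin windows with 2 and 1. Whether matches go with the TSLPR differences was not tested. Windows of Lrrc32 and Smad7 were not read here, and whether they hold these motifs was not tested.

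Furin, the protease that cuts the Tgfb1 precursor (chromosome 7, 80388585 to 80405436, - strand), varied widely between mice. Its per-mouse sums were 24.97, 25.4, 19.1 and 15.3 CPM in cancer mice and 19.6, 23.7, 68.5 and 40.5 CPM in naive mice (log2 -0.85 ± 0.37, edgeR adjusted p = 0.290). Naive mouse 3 was the highest, with 85.9 CPM in its TSLPR+ST2+ and 83.4 CPM in its TSLPR-ST2+ library. In the TSLPR+ST2+ gate the cancer libraries (7.49 to 21.8 CPM) lay below the naive ones (23.2 to 85.9 CPM) without passing (edgeR adjusted p = 0.125). The groups of 9.46% of all genes did not overlap there, in either direction. Gm44851 overlaps Furin on the other strand, and no source used here gives the strand of the counts.

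Tgfb1, the ligand (chromosome 7, 25687002 to 25705077, + strand), was lower in cancer mice. Per-mouse sums were 51.9, 52.4, 46.4 and 49.6 CPM in cancer mice and 68.5, 78.2, 74.7 and 80.5 CPM in naive mice, without overlap, as for 11.3% of all genes. It was 1.51-fold lower (log2 -0.59 ± 0.09, edgeR adjusted p = 0.0231). As for Lrrc32, leaving out any one of mice 2, 4, 5, 6, 7 or 8 ended the call (edgeR adjusted p 0.0544 to 0.0821), and with the mitochondrial share as covariate the log2 difference was -0.52 (edgeR adjusted p = 0.457).
Within gates it passed in TSLPR+ST2+ cells alone, which is no test of a difference between gates. TSLPR+ST2+ libraries had 56.2, 43.4, 38.8 and 38.9 CPM in cancer and 98.3, 88.1, 88.0 and 104 CPM in naive mice, without overlap, as for 9.46% of all genes. The level was 2.14-fold lower (log2 -1.09 ± 0.20, edgeR adjusted p = 0.00303). With the mitochondrial share as covariate this was -0.82 (edgeR adjusted p = 0.443), without the mouse 7 library -1.04 (edgeR adjusted p = 0.0134), and in the 8 libraries of the gate alone -1.09 (edgeR adjusted p = 0.0609).
TSLPR+ST2- libraries had 41.7, 78.0, 46.1 and 49.2 CPM in cancer and 86.9, 106, 74.3 and 93.0 CPM in naive mice (log2 -0.74 ± 0.20, edgeR adjusted p = 0.278). Only the cancer library of mouse 6 reached the naive range, and without mouse 6 the adjusted p was 0.0416. In TSLPR-ST2+ libraries the means were 56.2 ± 13.01 CPM in cancer and 52.0 ± 9.56 CPM in naive mice, and in TSLPR-ST2- libraries 44.6 ± 5.25 CPM in cancer and 63.1 ± 10.3 CPM in naive mice (SD, n = 4 each), neither past the limit (edgeR adjusted p = 0.940 and 0.601).

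Seen across gates, Tgfb1 was higher in TSLPR+ than in TSLPR- cells of naive mice. Naive TSLPR+ libraries had 74.3 to 106 CPM (median 90.6) and naive TSLPR- libraries 42.7 to 72.4 CPM (median 59.7), without overlap, as for 1.04% of all genes. The log2 difference was 0.69 ± 0.14 in 4 of 4 mice (edgeR adjusted p = 0.00297), one of 3 of the 10 genes past the limit there, with 4.48% of all genes (2.64% higher), beside Itgb8 and Tgfbr1. Without mouse 1 its edgeR adjusted p was 0.0682, and with the macrophage and dendritic cell marker sum as covariate 0.0738 at log2 0.72.
Cancer TSLPR+ libraries had 38.8 to 78.0 CPM (median 44.7) and cancer TSLPR- libraries 37.5 to 69.4 CPM (median 48.5), a log2 difference of -0.04 ± 0.14 (edgeR adjusted p = 0.941). Among cancer mice Itgb8, Lrrc32 and Nrp1 passed, with 7.11% of all genes (3.95% higher and 3.16% lower), and none of the 3 did without the ST2+ libraries of mouse 5 (edgeR adjusted p 0.0612 to 0.155).
The test of the difference between statuses gave log2 -0.73 ± 0.20 for Tgfb1, with an unadjusted p of 0.00112 from edgeR's fit across all genes and an edgeR adjusted p of 0.390. No gene passed this interaction in edgeR, 1178 had an unadjusted p under 0.05, and DESeq2 called 48 genes with none of the 10 among them. The ST2 effect in TSLPR+ minus that in TSLPR- cells likewise gave 0 genes in edgeR, 1094 with an unadjusted p under 0.05 and 103 in DESeq2, none of the 10 in either tool. Over both statuses the TSLPR difference of 0.33 ± 0.10 (edgeR adjusted p = 0.0287, higher in 5 of 8 mice) did not pass without mouse 1, 2, 4 or 6 (edgeR adjusted p up to 0.120).
The group order of Tgfb1 had 1 gap. Naive TSLPR+ST2+ (94.6 ± 7.93) and TSLPR+ST2- cells (90.0 ± 13.1 CPM) stood above naive TSLPR-ST2- cells (63.1 CPM) with no shared value. The remaining groups down to cancer TSLPR+ST2+ cells (44.3 ± 8.19 CPM, SD, n = 4 each) overlapped with their neighbours.

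The receptor genes moved in opposite directions with TSLPR. Tgfbr1, the signalling type I receptor (chromosome 4, 47353222 to 47414931, + strand), had 92.0 to 185 CPM (median 131) in TSLPR+ and 58.6 to 141 CPM (median 98.9) in TSLPR- libraries, higher in 8 of 8 mice (log2 0.46 ± 0.11, edgeR adjusted p = 0.00402). Tgfbr2, the ligand-binding type II receptor (chromosome 9, 116084293 to 116175360, - strand), had 108 to 379.8 CPM (median 133) in TSLPR+ and 116 to 421 CPM (median 178) in TSLPR- libraries, lower in 8 of 8 mice (log2 -0.49 ± 0.15, edgeR adjusted p = 0.0317). Both sets of libraries overlapped. Within 1 status, Tgfbr1 passed among naive mice (log2 0.56, edgeR adjusted p = 0.0309) and not among cancer mice (0.36, edgeR adjusted p = 0.152). The naive call was lost without any one of mice 1, 2, 3 or 4 (edgeR adjusted p up to 0.268). It was also lost with the macrophage and dendritic cell marker sum as covariate.
The Tgfbr2 call was lost with the mouse as a random block (log2 -0.47, limma adjusted p = 0.0530), with the mitochondrial share as covariate (-0.22, edgeR adjusted p = 0.308) and without mouse 2, 4, 5, 7 or 8 (edgeR adjusted p up to 0.139).
Between the single-positive gates both estimates were larger. TSLPR+ST2- libraries had 110.2 to 177 CPM of Tgfbr1 (median 145) and TSLPR-ST2+ libraries 58.6 to 141 CPM (median 98.2), higher in 8 of 8 mice (log2 0.62 ± 0.15, edgeR adjusted p = 0.0221). It did not pass without one of mice 1, 4, 5 or 6 (edgeR adjusted p up to 0.109). Tgfbr2 had 108 to 160.3 CPM (median 126) in TSLPR+ST2- and 140.2 to 421 CPM (median 194) in TSLPR-ST2+ libraries, 1.88-fold lower in 8 of 8 mice (log2 -0.91 ± 0.22, edgeR adjusted p = 0.0176). Itgb8 was 2.53-fold higher in TSLPR+ST2- cells in 7 of 8 mice (32.6 ± 5.35 against 13.8 ± 11.4 CPM, SD, n = 8 each, edgeR adjusted p = 0.0468), and did not pass without one of mice 1, 3, 4, 5, 7 or 8 (edgeR adjusted p up to 0.159) or with the mitochondrial share as covariate (edgeR adjusted p = 0.105). Tgfbr2 was -0.58 under that covariate (edgeR adjusted p = 0.0746), and did not pass without mouse 5 or mouse 8 (edgeR adjusted p = 0.0686 and 0.0822). DESeq2 also called Smad7 lower in this comparison (log2 -0.57, DESeq2 adjusted p = 0.0276), which edgeR did not (edgeR adjusted p = 0.0623).
Neither receptor passed between cancer and naive mice. Per-mouse sums were 116 ± 23.2 CPM in cancer and 123 ± 10.8 CPM in naive mice for Tgfbr1, and 175 ± 35.7 CPM in cancer and 197 ± 82.2 CPM in naive mice for Tgfbr2 (SD, n = 4 each, edgeR adjusted p = 0.815 and 0.795). In the TSLPR+ST2+ gate Tgfbr1 had 92.0, 114, 126 and 111 CPM in cancer mice, just below the 127, 149, 184.5 and 135 CPM of naive mice (log2 -0.42 ± 0.22, edgeR adjusted p = 0.276). The groups of 9.46% of all genes did not overlap in that gate. Tgfbr2 was highest in naive mouse 3, at 319 CPM per mouse against 139.6 to 170.1 CPM in the other naive mice.

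Smad3, which carries the receptor signal to the nucleus (chromosome 9, 63646767 to 63757994, - strand), had group means from 26.6 ± 2.67 CPM in cancer TSLPR-ST2- to 52.9 ± 2.17 CPM in cancer TSLPR+ST2+ libraries (SD, n = 4 each). Single libraries ran from 8.41 CPM in the TSLPR-ST2+ gate of cancer mouse 8 to 82.1 CPM in the TSLPR+ST2+ gate of naive mouse 3. Per-mouse sums were 40.5 ± 12.5 CPM in cancer and 43.9 ± 8.89 CPM in naive mice (edgeR adjusted p = 0.859).

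Of the inhibitors, Smad7, which is itself induced by TGF-beta and blocks the type I receptor (chromosome 18, 75367529 to 75395935, + strand), was lower in TSLPR+ gates. It had 23.4 to 50.6 CPM (median 32.5) in TSLPR+ and 30.9 to 74.4 CPM (median 43.4) in TSLPR- libraries, lower in 7 of 8 mice with overlap (log2 -0.47 ± 0.12, edgeR adjusted p = 0.00712). In edgeR it passed neither among cancer mice alone (log2 -0.42, edgeR adjusted p = 0.132) nor among naive mice alone (-0.53, edgeR adjusted p = 0.0717). Smad7 per mouse was 43.2 ± 5.85 CPM in cancer and 36.6 ± 7.11 CPM in naive mice (edgeR adjusted p = 0.495). In the TSLPR+ST2- gate its cancer libraries (32.3 to 50.6 CPM) lay above the naive ones (23.4 to 29.3 CPM), as 6.97% of all genes did in either direction, without passing (edgeR adjusted p = 0.582).
Ski, a nuclear repressor of Smad targets (chromosome 4, 155154075 to 155222592, - strand), passed nowhere. Its group means ran from 77.1 ± 19.4 CPM in naive TSLPR+ST2+ to 111 ± 20.5 CPM in cancer TSLPR-ST2+ libraries, and its log2 differences were -0.09 ± 0.12 for TSLPR, 0.02 ± 0.12 for ST2 and 0.21 ± 0.14 for cancer.

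The wider pathway was read from 7 lists. With TSLPR 13.4% of all genes passed, and counts of 1 of 8 or 1 of 9 below lie near that share. Of 9 tested genes for ligands and latency 0 were higher and 2 lower, Itgb1 (integrin beta-1, log2 -0.44 ± 0.13) and Nrros (another anchor of latent TGF-beta, -0.27 ± 0.09). Of 8 Smads and partners 1 was lower, Smad4, the partner shared by all receptor-activated Smads, at 126 ± 47.5 CPM in TSLPR+ and 167 ± 38.9 CPM in TSLPR- libraries (SD, n = 16 each, log2 -0.46 ± 0.12, edgeR adjusted p = 0.00740). Of 13 inhibitors and ubiquitin ligases 1 was higher, Ldlrad4, and 3 lower, the ligases Smurf1 (-0.59 ± 0.18), Smurf2 (-0.55 ± 0.17) and Nedd4l (-0.81 ± 0.25). Of 9 receptors and co-receptors Bmpr1a was higher (1.92 ± 0.64). Of 9 genes of non-Smad signalling, kinases and others, 2 were lower, Mapk14 (-0.46 ± 0.13) and Traf6 (-0.42 ± 0.14). No count here is read as particular to its list.
Of 11 tested genes known to be induced by TGF-beta, 4 were higher and 1 lower with TSLPR (7.97% and 5.46% over all genes), with a median log2 difference of 0.26 for the list and 0.01 for all genes. Itgae, the CD103 gene, was at 359 ± 202 CPM in TSLPR+ and 206 ± 106 CPM in TSLPR- libraries (log2 0.81 ± 0.13, edgeR adjusted p = 4.57e-05). The other higher genes were Bhlhe40 (1.40 ± 0.26), Ldlrad4 (0.26 ± 0.09) and Cdkn2b (3.17 ± 1.07, at 6.45 ± 14.7 CPM in TSLPR+ and 0.774 ± 1.56 CPM in TSLPR- libraries), and the lower one was Smad7. The macrophage and dendritic cell marker sums above were also higher in TSLPR+ libraries by median. The part of other cells' RNA in the values of Itgae and these genes was not tested. Of the Treg markers Ctla4 (log2 0.73 ± 0.05), Maf (1.39 ± 0.11) and Ikzf2 (0.47 ± 0.08) were higher, and Nrp1 itself was lower.
With ST2, Itgb1 (log2 1.78 ± 0.13), Bmpr1a (2.38 ± 0.65), Itgae (1.15 ± 0.13) and Tgfbi (4.11 ± 0.99) were higher. None of the 8 Smads and partners, 13 inhibitors or 9 genes of non-Smad signalling passed in edgeR. Tgfbi, which macrophages also express, averaged 14.1 ± 15.1 CPM in ST2+ and 1.84 ± 3.03 CPM in ST2- libraries (SD, n = 16 each), and the macrophage marker sums above moved the same way. Of the 9 Treg markers 4 were higher, Gata3 (0.81 ± 0.12), Maf (0.50 ± 0.10), Ikzf2 (0.36 ± 0.08) and Nrp1. Another 3 were lower, among them Il2ra (-0.56 ± 0.08) and Foxp3 (-0.40 ± 0.11, edgeR adjusted p = 0.0240).
Between TSLPR+ST2- and TSLPR-ST2+ cells, where 2.67% of all genes passed, Itgb1 (-2.22 ± 0.19), Smad4 (-0.61 ± 0.16) and Nedd4l (-1.40 ± 0.37) were lower and Bhlhe40 (1.39 ± 0.36) was higher. None of the 9 receptors or 9 genes of non-Smad signalling was past the limit.
Between cancer and naive mice, 1 of 11 induced genes passed per mouse, where 1.21% of all genes did. None passed from the ligand, receptor, Smad, inhibitor or non-Smad signalling lists. Junb, an AP-1 subunit that TGF-beta induces, was at 395 ± 36.0 CPM in cancer and 751 ± 17.5 CPM in naive mice (SD, n = 4 each, log2 -0.93 ± 0.07, edgeR adjusted p = 0.00190). Il2ra, the CD25 gene, was at 413 ± 5.03 CPM in cancer and 627 ± 72.3 CPM in naive mice (log2 -0.60 ± 0.08, edgeR adjusted p = 0.0131). Of the 13 macrophage and dendritic cell markers tested, 2 passed in the same sums, both lower. C1qb was at 45.0 ± 8.95 CPM in cancer and 98.4 ± 25.5 CPM in naive mice, and Cd68 at 17.7 ± 3.78 CPM in cancer and 42.3 ± 8.13 CPM in naive mice (edgeR adjusted p = 0.0346 and 0.0278). The list as a whole was not lower, with 7 log2 differences above 0, 6 below and a median of 0.05. By library the marker sum had a median of 1594 CPM in cancer and 942 CPM in naive mice. The part of these markers in the differences of Lrrc32 and Tgfb1 was not tested beyond the fit with the marker sum. Under that fit both genes passed (edgeR adjusted p = 0.0419 and 0.0420).
Junb was also lower in TSLPR-ST2- (log2 -0.87 ± 0.14) and TSLPR-ST2+ cells (-1.04 ± 0.14), and Il2ra in TSLPR-ST2+ cells (-1.01 ± 0.15). In the TSLPR+ST2+ gate, where 4.16% of all genes passed, 3 of 11 induced genes were lower, Junb, Itgae and Skil. Also lower there were Smad4 (94.5 ± 34.7 in cancer and 192 ± 28.7 CPM in naive libraries), Nrros (102 ± 17.1 in cancer and 166 ± 26.9 CPM in naive libraries) and Tab1 (7.03 ± 5.16 in cancer and 40.9 ± 14.7 CPM in naive libraries, SD, n = 4 each). Of its Treg markers Foxp3 was lower, at 90.8 ± 25.8 CPM in cancer and 155 ± 35.4 CPM in naive libraries (edgeR adjusted p = 0.0431), Il2ra was lower (log2 -0.68 ± 0.15) and Ikzf2 higher (0.64 ± 0.16). Of 6 epithelial markers 3 were higher there, Car1 (5.84 ± 1.35), Krt8 (6.51 ± 1.56) and Krt20 (6.72 ± 1.79). That gate also had the highest mitochondrial shares of the cancer groups, and the part of RNA quality in these differences was not tested.

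By likeness of log2 CPM over the 32 Treg libraries, among 7192 genes, the closest to Lrrc32 were Zfp687, Il2rb and Rnf123 (Pearson r 0.861, 0.853 and 0.845). Those closest to Itgb8 were Tnfrsf9, Rnase4 and Tnfrsf18 (0.812, 0.805 and 0.766), and to Tgfb1 Hcls1, Emc10 and Ppp5c (0.834, 0.806 and 0.799). Tgfbr2 was closest to Stk4, Mcl1 and Btg1 (0.850, 0.840 and 0.833), and Tgfbr1 to Rnase4, Nt5e and Phactr2 (0.742, 0.718 and 0.711). Nrp1 was closest to Add3, Rab27a and Stk4 (0.747, 0.722 and 0.700), Furin to Tox4 (0.725), Ski to Paip2b (0.707), Smad7 to Klf13 (0.695) and Smad3 to Abhd4 (0.625). The libraries share mice, gates and depth, and these values are a description.

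The Foxp3-negative CD44low library, 1 sample with no test, had 0 counts of Lrrc32 and 0 of Itgb8 among 7022068, which allows up to 0.427 CPM, and 2 counts of Foxp3. The 16 naive Treg libraries had 181 to 550.5 CPM of Lrrc32 and 3.94 to 70.4 CPM of Itgb8 on the same plain totals. Nrp1 was at 19.2 CPM there and at 99.4 to 531 CPM in naive Treg. Tgfbr2 was at 330.4 CPM, within the naive Treg range of 110.2 to 407 CPM, Smad7 at 58.5, Tgfb1 at 56.3, Smad3 at 45.3 and Ski at 71.8 CPM, likewise within range, as was Furin at 13.96 CPM, while Tgfbr1 at 58.8 CPM lay below the naive Treg range of 71.6 to 179.8 CPM. The limit on a count of 0 covers counting error only.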

How the data were processed

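Colon Treg of 8 mice were profiled with SMART-Seq v4 and 58-base single reads, 200 cells per library. The authors deposited raw counts per Ensembl gene on GRCm38. Per the submitters' processing notes SAMtools 1.2, HTSeq 0.4.1, FastQC 0.11.3 and Picard 1.134 were among the tools. No source used here gives the aligner, annotation or strand setting. Each of 33 columns matched 1 library, and no 2 held identical values.

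Counts were tested with edgeR 4.0.16 (R 4.3.3): TMM scaling, filterByExpr (minimum count 10, minimum total 15), robust quasi-likelihood F-tests and Benjamini-Hochberg adjustment over all genes with a limit of 0.05. A model of 8 groups over 32 Treg libraries (14861 genes) gave all within-gate, gate and interaction contrasts. Cancer versus naive was also tested on the summed gates of each mouse (15338 genes). Gate contrasts are means over groups on the log2 scale, so folds can differ from ratios of printed means. Alternatives used RLE factors, DESeq2 1.42.0, limma 3.58.1, no filter, thinned counts, covariates, left-out mice and mouse blocks. The fit was tested on simulated counts first. Gates of a mouse share the animal, as the labels give its number. Library deviations from group means had a mean correlation of 0.00993 over 48 same-mouse pairs (3 over 0.1) and -0.00331 over 144 pairs of different mice (0 over 0.1).

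All 10 genes were tested in every comparison. The text gives those that passed or whose groups did not overlap, and the others in the main comparisons. From the pathway and Treg lists it names genes past the limit, beside members and Foxp3 at most the 4 with the smallest p of a list in a comparison. Between the single-positive gates 4 of 9 Treg markers were higher and 2 lower, and only Nrp1 of them is named. List genes past the limit within 1 status are not named either. Lists of other cell types are given mainly as sums. One gene of the Treg marker list is not reported here. Likeness was ranked among genes of at least 20 CPM. Members and lists were chosen with earlier results of these data known. Contrasts within one status, the macrophage covariate and the fit without 1 library of mouse 7 were added after seeing the data. Gene positions and exons come from GENCODE M21, promoters from RefSeq.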

Additional observations from a re-analysis of the deposited data

Results flagged for a closer look

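In 100 groups of 4 checked, 6 values stood apart from the other 3 of their group, where chance flags about 1 in 20 groups. Of these 5 come from naive mouse 3 and share libraries. In its TSLPR-ST2+ library Tgfbr2 was at 421 CPM and Smad7 at 74.4 CPM. In its per-mouse sum Tgfbr2 was at 319 CPM, Smad3 at 57.2 CPM and Smad7 at 47.2 CPM. The per-mouse sum of Itgb8 was 36.5 CPM in naive mouse 4. Each is higher than the other naive values of its group.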

How the results depend on the processing

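Counts below are of the 10 genes that passed. With the mitochondrial share as covariate they were 0 for cancer versus naive per mouse and 0 in the TSLPR+ST2+ gate, against 2 each, 2 for TSLPR+ST2- versus TSLPR-ST2+, against 4, 0 for ST2 in naive mice, 0 for TSLPR in cancer mice and 5 for TSLPR in naive mice, against 1, 3 and 3. Fitting only the 8 libraries of a gate gave 0 in TSLPR-ST2+ and 0 in TSLPR+ST2+. With the macrophage and dendritic cell marker sum as covariate they were 0 for ST2 and 0 for TSLPR, against 2 and 7, and 0 for ST2 in naive mice, 0 for TSLPR in cancer and 0 for TSLPR in naive mice. Without 2 libraries of mouse 5 they were 1 for ST2, 0 for ST2 in naive mice and 0 for TSLPR in cancer mice, and without the TSLPR+ST2+ library of mouse 7 the last was 1. The replicate block on the mouse gave 1 for ST2 and 0 for ST2 in naive mice in both edgeR and limma-voom. It also ended the calls of Tgfbr2 for TSLPR and of Lrrc32 for TSLPR in cancer mice (log2 -0.67, limma adjusted p = 0.133) in limma-voom, and changed no other call. DESeq2 gave 1 for the ST2 effect, cancer minus naive, against 0. Among the 9 gained calls are Tgfbr2 for ST2 (DESeq2 adjusted p = 0.0460, edgeR adjusted p = 0.0496 with the mitochondrial share), Smad7 for TSLPR in naive mice (DESeq2 adjusted p = 0.0462, edgeR adjusted p = 0.0445 with that share) Smad7 for TSLPR+ST2- versus TSLPR-ST2+ (DESeq2 adjusted p = 0.0276), Nrp1 for TSLPR in naive mice with that share (edgeR adjusted p = 0.00429), Tgfbr2 for TSLPR in cancer mice without mouse 3 (edgeR adjusted p = 0.0205) and Tgfb1 for cancer in TSLPR+ST2- without mouse 6 (edgeR adjusted p = 0.0416). Leaving out 1 mouse gave 0 to 2 for cancer versus naive per mouse, 2 to 2 in the TSLPR+ST2+ gate, 0 to 1 in each single-positive gate, 0 to 0 in the TSLPR-ST2- gate, 1 to 2 for ST2, 5 to 7 for TSLPR, 1 to 4 for TSLPR+ST2- versus TSLPR-ST2+, 1 to 1 and 0 to 1 for ST2 in cancer and naive mice, 0 to 4 and 0 to 3 for TSLPR in cancer and naive mice, and 0 to 0 for each interaction. Why calls were lost or gained under these fits was not tested. Of 2670 alternative values for 150 results, 114 lost and 9 gained a call, and 133 changed sign, in each case with no call on either side. Thinning to equal totals is among these alternatives.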
